A study of Quercus robur with 12 samples.

Results

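miR393 was followed in the root tips of pedunculate oak (Quercus robur) through its members qrb-miR393a and qrb-miR393b, whose prefix is left out below. They were chosen by name and are 2 of the 75 miRNAs in the count table, 51 of them known miRNAs and 24 named by sequence. Small RNAs had been sequenced from the dividing (meristematic) zone at the tips of taproots (TR) or of lateral roots (LR). The wild-type seedlings had grown from acorns in peat and perlite. Control plants (CT) were fully watered, and drought-stressed plants (DS) spent 4 weeks, after 8 weeks of acclimatization, with soil moisture lowered to 25% of that of the controls and with water supplied only from the bottom of the chamber. The groups TR-CT, TR-DS, LR-CT and LR-DS had 3 libraries each, and every library was made from pooled root tips, so that p-values measure the spread between such pools. Seedlings raised in containers and seedlings sown directly into the root chambers were both sampled, and the labels do not say which of them a library came from, so an effect of drought and an effect of cultivation cannot be told apart. The table holds mature miRNAs and no marker transcripts, so the labelled tissue was not checked.

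In Arabidopsis, miR393 pairs with the mRNAs of TIR1 and its AFB relatives, the F-box proteins that bind auxin and mark the Aux/IAA repressors for degradation, and cuts them. Less receptor mRNA means a weaker response to auxin, the hormone that sets cell division in the root tip and the start of lateral roots. In Arabidopsis and other plants, miR393 is known for responding to drought, salt, abscisic acid and nitrate.

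The study listed the following mature sequences under the name qrb-miR393, without a letter, and the sources used here do not say which of them is counted as miR393a and which as miR393b. Sequence 1 and sequence 2 are names given here. They are shown as the study listed them, and the capitals mark the seed, bases 2 to 8 from the 5′ end.
Sequence 1: uCCAAAGGgaucgcauugauuu
Sequence 2: aUCAUGCUaucccuuuggacu
Sequence 1 has 22 bases and sequence 2 has 21, and their seeds differ. Laid against each other in opposite directions without a gap, 15 of 19 facing bases paired, and 2 bases at the 3′ end of sequence 2 had no partner. Whether sequence 2 is the opposite strand of the precursor of sequence 1, and whether it acts on auxin receptor mRNAs, was not tested. None of the 24 miRNAs named by sequence carried either seed at bases 2 to 8.
The sites that the study listed for sequence 1 lie in oak transcripts that the sources used here do not annotate with a gene name. They are shown because extensive pairing along the miRNA, and not at the seed alone, is typical of the sites that plant miRNAs cut. The study identified miRNA targets from sequenced ends of cut mRNAs (its degradome) with CleaveLand4. That evidence of cleavage was not examined again here. Capitals mark the bases that pair, without a gap, with bases 1 to 18 of sequence 1.
Qrob_T0036220.2: gaggCAAUGCGAUCCCUUUGGA
Qrob_T0626770.2: gagaCAAUGCGAUCCCUUUGGA
These sites differed at 1 base, which lay outside the paired stretch. For sequence 2 the study listed 1 site, in Qrob_T0380050.2. With 24 bases against the 21 of sequence 2, its pairing without a gap was not counted.

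The counts assigned to miRNAs summed to between 160039 (LR-DS replicate 3) and 1267473 (TR-CT replicate 2) per library. A single sequence of 16 nt took from 34.1% to 89.1% of them, so that between 26087 and 557180 counts per library were left for the other 74 miRNAs. Levels are therefore given as CPM, the count relative to a library total that was scaled by TMM, edgeR's trimmed mean of M values. The TMM factors over the 12 libraries lay between 0.510 and 1.84. Both this sequence's share and the factors separated watered from drought-stressed lateral roots. The share reached at most 60.6% among the LR-CT libraries, while no LR-DS library fell below 83.7%. Every factor of LR-CT was 1.71 or more, whereas those of LR-DS stayed at or below 0.939. Over the 73 miRNAs outside miR393, each of the 6 taproot libraries was closer to a lateral root group than to the rest of its own group. TR-CT replicate 3 had a mean Spearman correlation of 0.807 with the other TR-CT libraries, of 0.880 with the TR-DS libraries and of 0.893 with the LR-DS libraries. TR-DS replicate 2 had a mean correlation of 0.824 with the other TR-DS libraries, of 0.898 with the TR-CT libraries and of 0.908 with the LR-DS libraries. Both enter the values below under their labels, and the miR393a comparisons that include them are also given without each.

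miR393a was the abundant member. It was counted 1263 times over the 12 libraries, which is 94.5% of all miR393 counts and rank 44 of the 75 miRNAs, and it was seen in 11 of the 12 libraries. miR393b was counted 73 times, which is 5.46% of the miR393 counts and rank 72, and it was seen in 9 libraries with at most 17 counts in any of them. Intervals and floors on such counts cover counting error only, because the reads carry no molecular identifiers and can be copies of 1 molecule.

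Lateral root tips of drought-stressed plants held more miR393a than those of watered plants. The 3 LR-CT libraries had 16, 23 and 14 counts of miR393a, or 11.5, 14.8 and 7.72 CPM. The 3 LR-DS libraries had 189, 157 and 8 counts, or 319, 216 and 53.3 CPM. Every LR-DS library lay above every LR-CT library, and the lowest of them, replicate 3, was also the library with the fewest counts in the table. By library size alone, its 8 of 160039 counts were 50.0 CPM with a 95% Wilson interval of 25.3 to 98.6. The LR-CT libraries lay between 13.2 and 27.2 CPM on that scale, with intervals reaching up to 40.8, so the intervals overlapped while the values did not. miR393a was higher in LR-DS by a log2FC of 4.12 (SE 0.83, 95% interval 2.35 to 5.90), a fold of 17.4 (5.10 to 59.6; edgeR's quasi-likelihood test, FDR = 0.00331 with Benjamini-Hochberg adjustment over 75 miRNAs). In this comparison 32.0% of all miRNAs passed an FDR of 0.05 in either direction and 9.33% passed it as higher in LR-DS, and miR393a ranked 3 by log2FC among the 75. LR-DS and LR-CT were without overlap for 46.7% of all miRNAs, with LR-DS higher for 14.7%. In bulk root tips, more miR393a per cell and more cells that hold it cannot be told apart.

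The higher level of miR393a in LR-DS was present under each way of scaling the libraries. The median log2FC of all 75 miRNAs was −0.29 with TMM, −1.45 with library size alone, −0.018 with RLE factors and 0.45 with library size counted without the most abundant sequence. The log2FC of miR393a was 4.12, 2.86, 4.46 and 4.73 in the same order, and it exceeded the median of all miRNAs by 4.41, 4.31, 4.48 and 4.28. Leaving out any 1 of the 6 libraries gave log2FC values between 3.90 and 4.77, with FDR values from edgeR's quasi-likelihood test between 0.000774 and 0.0239. The call was lost in 1 setting, a single fit of all 12 libraries with a spread shared by both root types, where the log2FC was 4.11 (SE 1.79) and the FDR 0.194. The exact permutation test of the group means of log2 CPM, two-sided over 20 arrangements of 3 against 3, gave p = 0.1, the smallest value that this design allows, and 0.6 after adjustment over the 12 tests of levels and shares.

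In taproots, miR393a was spread so widely within each group that no difference between TR-DS and TR-CT was detectable. The TR-CT libraries had 15, 3 and 236 counts of miR393a, or 21.8, 4.20 and 701 CPM. The TR-DS libraries had 94, 0 and 508 counts, or 355, 0 and 575 CPM. After TMM scaling the highest value of all 12 libraries belonged to TR-CT replicate 3 and the lowest to TR-DS replicate 2, both of which were closer to the taproots of the other watering than to their own group over the remaining miRNAs. By library size alone TR-DS replicate 3 was the highest, with 579 CPM, and TR-CT replicate 3 had 357 CPM. On that scale the count of 0 in TR-DS replicate 2 allows up to 7.33 CPM (3 counts of its 409456), below all other taproot libraries but TR-CT replicate 2. The groups overlapped for miR393a, as for all but 9.33% of the 75 miRNAs (1.33% with TR-DS higher), and the log2FC was 1.16 (SE 1.95, 95% interval −3.24 to 5.56; edgeR's quasi-likelihood test, FDR = 0.997). None of the 75 miRNAs passed in taproots (0.0%), 3 had an unadjusted p of at most 0.05, and DESeq2 called 1.

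The taproot value was decided by single libraries. Without TR-CT replicate 3 the log2FC of miR393a was 5.15, and without TR-DS replicate 3 it was −0.065, with FDR values from edgeR's quasi-likelihood test between 0.330 and 0.998 over the 6 fits that leave out 1 library. Without TR-DS replicate 2 the log2FC was 1.74. Whether this spread goes with the likeness of libraries to other groups was not tested.

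**Figure D1:**
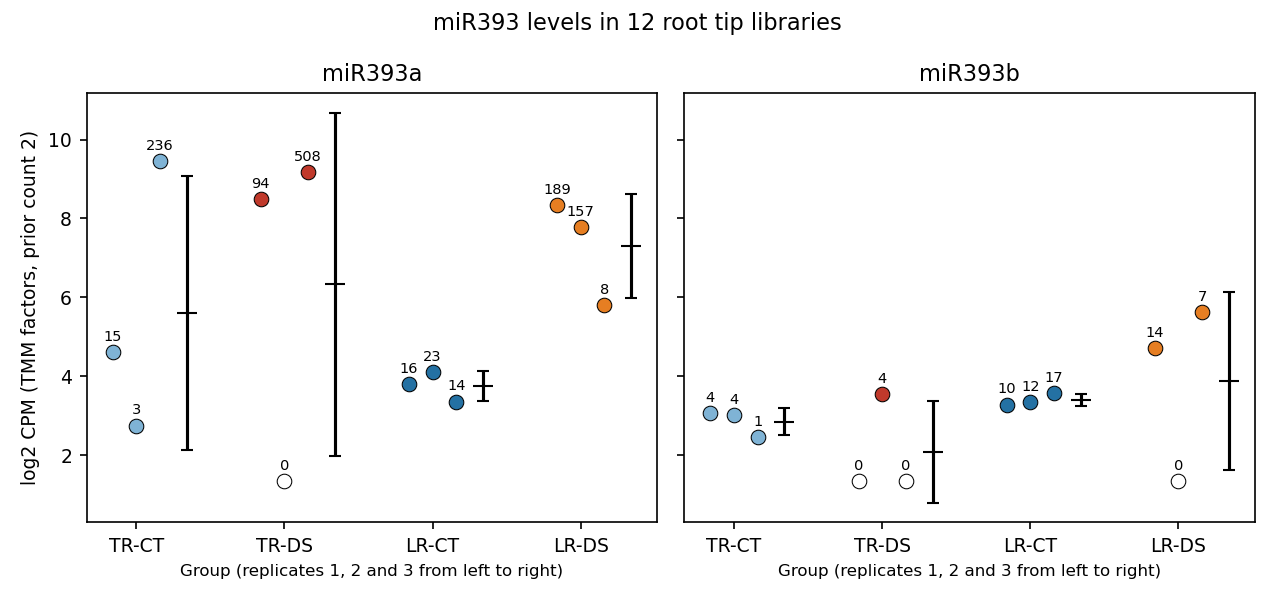
Levels of miR393a (left) and miR393b (right) as log2 CPM with TMM factors and a prior count of 2, by group, with 1 point per library, the raw count written above it, open points for a count of 0, and the group mean with its SD beside the points. All 3 LR-DS libraries lie above the 3 LR-CT libraries for miR393a, while the taproot groups span almost the whole axis.

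**Figure D2:**
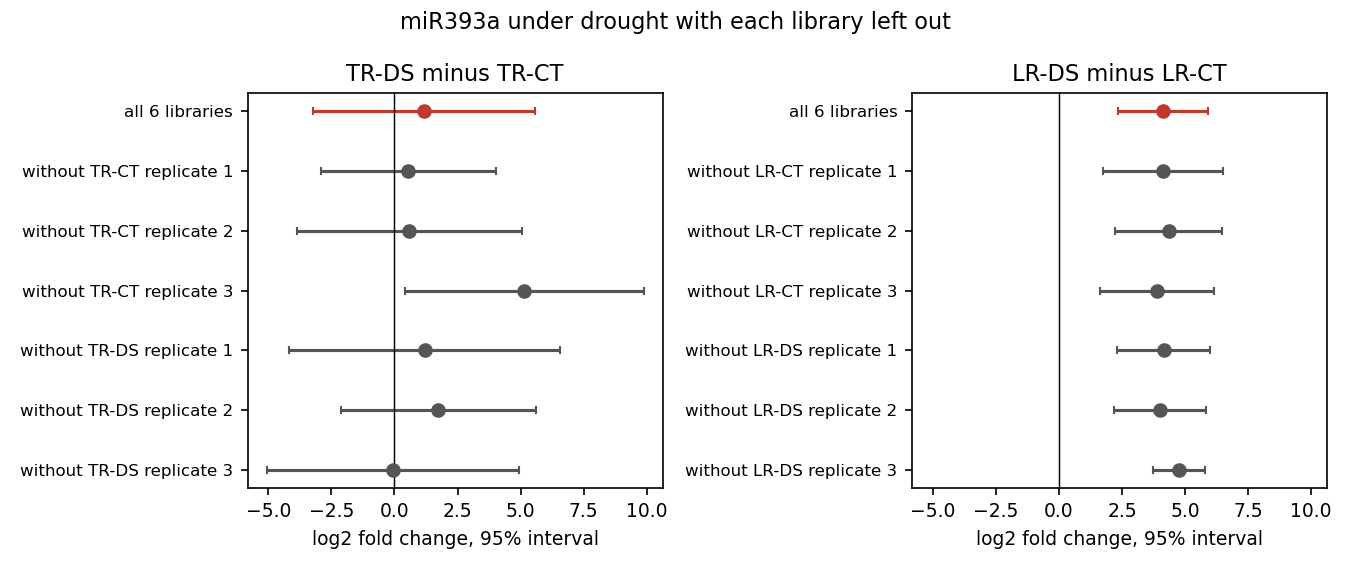
log2 fold change of miR393a under drought with its 95% interval (edgeR's quasi-likelihood fit) with all 6 libraries and without each library in turn, in taproots (left) and lateral roots (right). Values lie between 3.90 and 4.77 in lateral roots and between −0.065 and 5.15 in taproots.

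The difference between the root types in their contrast of drought with control was tested directly. For miR393a the contrast in lateral roots exceeded that in taproots by 3.74 on the log2 scale (SE 2.31, 95% interval −1.19 to 8.67), which did not pass (unadjusted p = 0.126, FDR = 0.656, edgeR's quasi-likelihood test over all 12 libraries). Without TR-CT replicate 3 the difference was −0.46, and without TR-DS replicate 2 it was 3.16. No miRNA passed this test (0.0% of 75), 5 had an unadjusted p of at most 0.05, DESeq2 called 1 and edgeR's likelihood ratio test called 3. Taken over both root types, with root type as a term, the log2FC of miR393a between drought and control was 2.21 (SE 1.45, 95% interval −0.88 to 5.31, FDR = 0.342). In that comparison 0.0% of the 75 miRNAs passed, 15 had an unadjusted p of at most 0.05, DESeq2 called 2 and edgeR's likelihood ratio test called 8. Without TR-CT replicate 3 the value over both root types was 4.30 with an FDR of 0.0143, and without TR-DS replicate 2 it was 2.81 with an FDR of 0.143.

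Between root types of watered plants, miR393a did not pass the test. The 3 LR-CT libraries, at 7.72 to 14.8 CPM, lay within the range of the TR-CT libraries, which ran from 4.20 to 701 CPM. The log2FC of LR-CT over TR-CT was −3.45 (SE 1.51, 95% interval −7.05 to 0.15), with an unadjusted p of 0.0577 and FDR = 0.430 (edgeR's quasi-likelihood fit). It was −0.17 without TR-CT replicate 3. No miRNA passed in this comparison (0.0% of 75), 5 had an unadjusted p of at most 0.05, and DESeq2 called 1.

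Between root types of drought-stressed plants, the miR393a values of LR-DS, 53.3 to 319 CPM, lay within those of TR-DS, 0 to 575 CPM. The log2FC was −0.72 (SE 1.28, 95% interval −3.38 to 1.94, FDR = 0.906 by edgeR's quasi-likelihood test), while the difference of the mean log2 CPM was 0.97, in the other direction. The fit without TR-DS replicate 3 gave 0.51, and that without TR-DS replicate 2 gave −1.30. Of 74 miRNAs tested here 0.0% passed, 4 had an unadjusted p of at most 0.05, and DESeq2 called 0.

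The order of the groups by miR393a depended on the scale. By mean log2 CPM it was LR-DS with 7.30 ± 1.33, TR-DS with 6.33 ± 4.34, TR-CT with 5.60 ± 3.47 and LR-CT with 3.76 ± 0.38 (SD, n = 3 each). By mean CPM it was TR-DS with 310, TR-CT with 242, LR-DS with 196 and LR-CT with 11.3 (SD 290, 397, 134 and 3.53). LR-CT was last in both orders and had the smallest spread. LR-CT and LR-DS, neighbours by mean CPM, did not overlap in their libraries. All other neighbours in either order overlapped.

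miR393b gave few counts in every library. The LR-CT libraries had 10, 12 and 17 counts of miR393b, or 7.20, 7.71 and 9.38 CPM, and the LR-DS libraries had 14, 0 and 7 counts, or 23.7, 0 and 46.6 CPM. The LR-DS libraries thus lay on both sides of the closely grouped LR-CT libraries. The count of 0 in LR-DS replicate 2 allows up to 3.47 CPM by library size alone (3 counts of its 864103). The log2FC of drought in lateral roots was 1.34 (SE 1.23, 95% interval −1.29 to 3.97), and its FDR from edgeR's quasi-likelihood test was 0.415.

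In taproots, the TR-CT libraries had 4, 4 and 1 counts of miR393b, or 5.81, 5.60 and 2.97 CPM, and the TR-DS libraries had 0, 4 and 0 counts, or 0, 9.24 and 0 CPM. Drought-stressed taproots held the highest and the lowest of these 6 values. The counts of 0 allow up to 8.08 CPM by library size alone in TR-DS replicate 1 and 3.42 in TR-DS replicate 3, so that a difference was not detectable at this depth. The log2FC was 0.01 (SE 3.62, 95% interval −8.17 to 8.20, FDR = 0.997 by edgeR's quasi-likelihood test), and it was −4.40 without TR-DS replicate 2, the library with the 4 counts.

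Between root types, the LR-CT libraries lay above all TR-CT libraries for miR393b. Such a gap between LR-CT and TR-CT was found for 30.7% of the 75 miRNAs, with LR-CT higher for 18.7%. The log2FC was 0.79 (SE 0.78, 95% interval −1.07 to 2.65, FDR = 0.737 by edgeR's quasi-likelihood test). The exact permutation test of log2 CPM gave p = 0.1, the smallest possible, and 0.6 after adjustment. Under drought, LR-DS over TR-DS gave a log2FC of 3.12 for miR393b (SE 2.27, 95% interval −1.61 to 7.84, FDR = 0.885 by the same test), and the libraries overlapped for both members, as for all but 4.05% of 74 miRNAs (1.35% with LR-DS higher). The group means of log2 CPM were 3.89 ± 2.26 in LR-DS, 3.40 ± 0.15 in LR-CT, 2.84 ± 0.34 in TR-CT and 2.07 ± 1.28 in TR-DS (SD, n = 3 each). Neighbours in this order overlapped, except LR-CT and TR-CT.

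**Figure D3:**
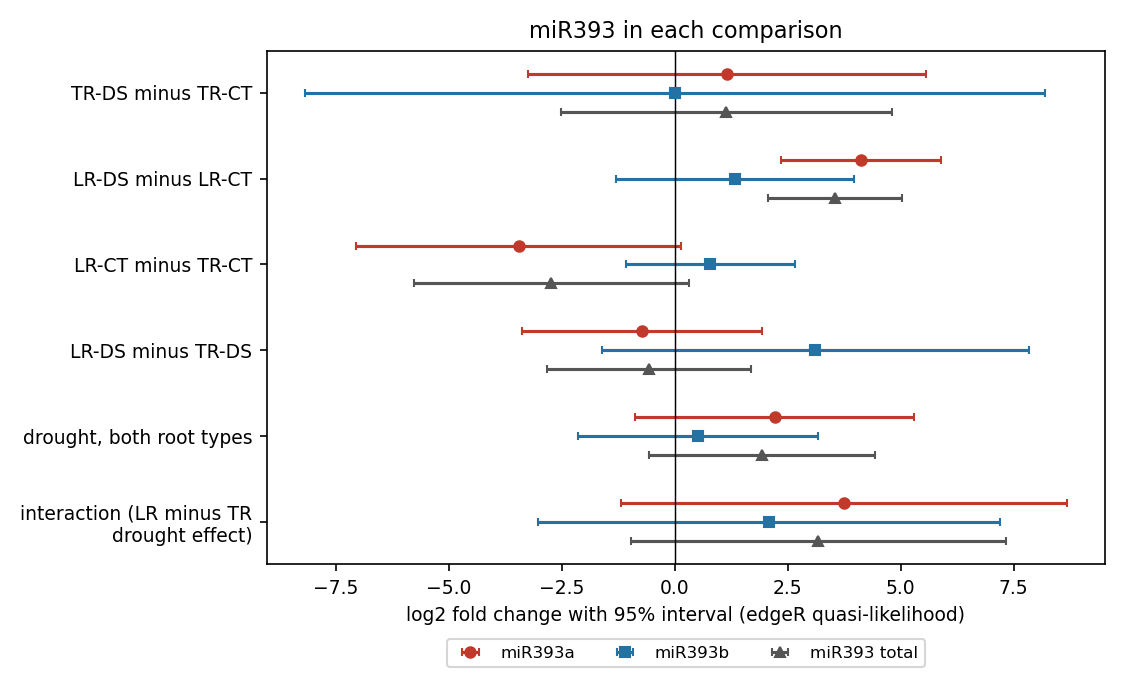
log2 fold change with its 95% interval for miR393a, miR393b and their summed counts (miR393 total) in each comparison, from edgeR's quasi-likelihood fits. The intervals of miR393a and of the total lie above 0 for LR-DS minus LR-CT, where the log2FC values are 4.12 and 3.56, and all other intervals include 0.

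The members were also summed. LR-CT held 26, 35 and 31 joint counts, and LR-DS held 203, 157 and 15. In CPM, the LR-CT libraries lay at 17.1 to 22.5 and the LR-DS libraries at 99.9 to 343, again without overlap. The sum was higher in LR-DS by a log2FC of 3.56 (SE 0.68, 95% interval 2.07 to 5.04, FDR = 0.00357, edgeR's quasi-likelihood test). It mostly repeats miR393a, with 354 counts of miR393a and 21 of miR393b in LR-DS, and miR393b alone did not pass. Over the 12 libraries, the log2 CPM values of miR393a and miR393b had a Spearman correlation of −0.46. In taproots the joint counts were 19, 7 and 237 under control conditions and 94, 4 and 508 under drought, with a log2FC of 1.15 (SE 1.62, 95% interval −2.52 to 4.81, FDR = 0.988).

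The share of miR393b in the joint counts varied with the level of miR393a, to which it is tied by arithmetic. In LR-CT it was 38.5%, 34.3% and 54.8%, with 95% Wilson intervals of 22.4 to 57.5%, 20.8 to 50.8% and 37.8 to 70.8%. In LR-DS it was 6.90% (4.15 to 11.2%), 0% (up to 2.39%) and 46.7% (24.8 to 69.9%). The first 2 LR-DS libraries lay below every LR-CT library with intervals that did not touch theirs, whereas replicate 3, with 15 joint counts, lay among them. The group means were 42.5% ± 10.9 in LR-CT and 17.9% ± 25.2 in LR-DS (SD, n = 3 each), a difference of −24.7 percentage points with an exact permutation p of 0.3.

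In taproots the share of miR393b covered nearly the whole scale. It was 21.1% (8.51 to 43.3%), 57.1% (25.0 to 84.2%) and 0.422% (0.0745 to 2.35%) in TR-CT. It was 0% (up to 3.93%), 100% (51.0 to 100%) and 0% (up to 0.751%) in TR-DS, where the library at 100% had only 4 joint counts. The libraries with under 1% were TR-CT replicate 3 and TR-DS replicates 1 and 3, those with the most miR393a. The group means were 26.2% ± 28.7 and 33.3% ± 57.7 (SD, n = 3 each; exact permutation p = 1.0), and neither root type comparison differed beyond the spread (exact permutation p = 0.5 for watered and 1.0 for drought-stressed plants).

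**Figure D4:**
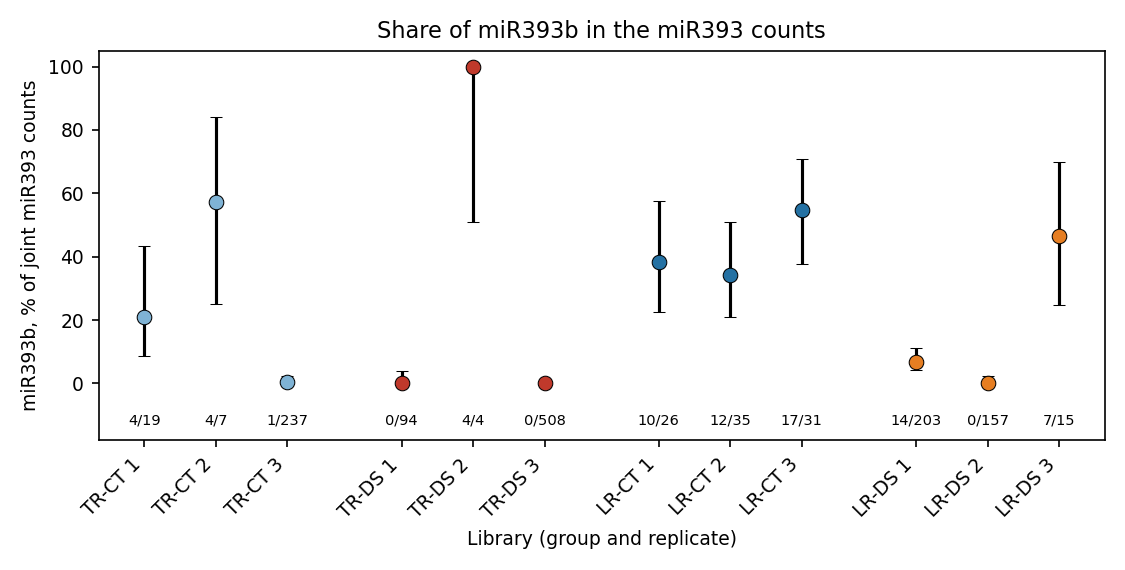
Share of miR393b in the joint counts of miR393a and miR393b, in percent, for each library, with 95% Wilson intervals and the counts (miR393b of both) written under the points. The LR-CT libraries lie between 34.3% and 54.8%, and each other group holds at least 1 library under 1% and 1 at or above 46.7%.

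miR393 was set beside 12 other miRNAs of auxin signalling, chosen by name. In Arabidopsis, miR160 and miR167 cut mRNAs of auxin response factors, the transcription factors that act on auxin target genes. miR390 starts the production of TAS3 small RNAs that act on further auxin response factors, and miR164 cuts mRNAs of NAC factors, including NAC1, which acts in lateral root formation downstream of TIR1. In lateral roots under drought, 1 of the 12 passed as lower, miR390a with a log2FC of −1.27 (SE 0.43, FDR = 0.0318 by edgeR's quasi-likelihood test), and 0 passed as higher. Of all 75 miRNAs, 32.0% passed in either direction, 17 as lower and 7 as higher. Among the 12, 7 lay above 0 and 5 below, and their median log2FC was 0.19, beside −0.29 over all 75 miRNAs.

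Within this list the values in lateral roots ran in both directions. miR164b had a log2FC of 2.59 (SE 1.07, FDR = 0.0766) and miR164a of 2.03 (SE 1.08, FDR = 0.165), and neither passed edgeR's quasi-likelihood test. miR167a and miR167b had values of −1.02 (SE 0.45, FDR = 0.0952) and 1.18 (SE 0.49, FDR = 0.0766), on opposite sides of 0. In taproots under drought, 0 of the 12 passed, as did 0.0% of all 75, with a median of 0.49 beside 0.02 over all miRNAs. In the comparisons of root types 0 passed, again with 0.0% of all miRNAs, and with medians of −0.59 beside −0.20 in watered plants and −0.08 beside 0.06 in drought-stressed plants. None passed in the test over both root types or in the interaction, where 0.0% of all miRNAs passed.

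By its pattern over the 12 libraries, miR393a was most like miR167b, miR166a and miR162a among the 65 miRNAs with at least 100 counts. Their Spearman correlations with the log2 CPM of miR393a were 0.951, 0.881 and 0.867, beside a median of −0.13 over all 65, and the 12 points share the libraries' depths and scaling factors. In Arabidopsis, miR166 cuts mRNAs of HD-ZIP III transcription factors, which pattern the root, and miR162 cuts the mRNA of DCL1, the enzyme that releases miRNAs from their precursors. With Pearson's correlation, or with library size in place of TMM, 2 of the 3 names stayed and miR171d entered.

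The levels in taproots are given as a description of the miRNAs so chosen. In log2 CPM, the TR-CT libraries had 11.3, 11.1 and 14.9 of miR162a, and the TR-DS libraries 14.4, 11.1 and 14.0. Of miR167b they had 8.63, 7.18 and 10.9, and 10.7, 7.72 and 10.4. Both were highest in TR-CT replicate 3 among the TR-CT libraries and lowest in TR-DS replicate 2 among the TR-DS libraries. The log2FC values of LR-DS over LR-CT were 1.73 for miR162a, 1.36 for miR166a and 1.18 for miR167b, and those of TR-DS over TR-CT lay between 0.82 and 1.40. They are given without a test, since the likeness to miR393a that chose these miRNAs used the same libraries.

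**Figure D5:**
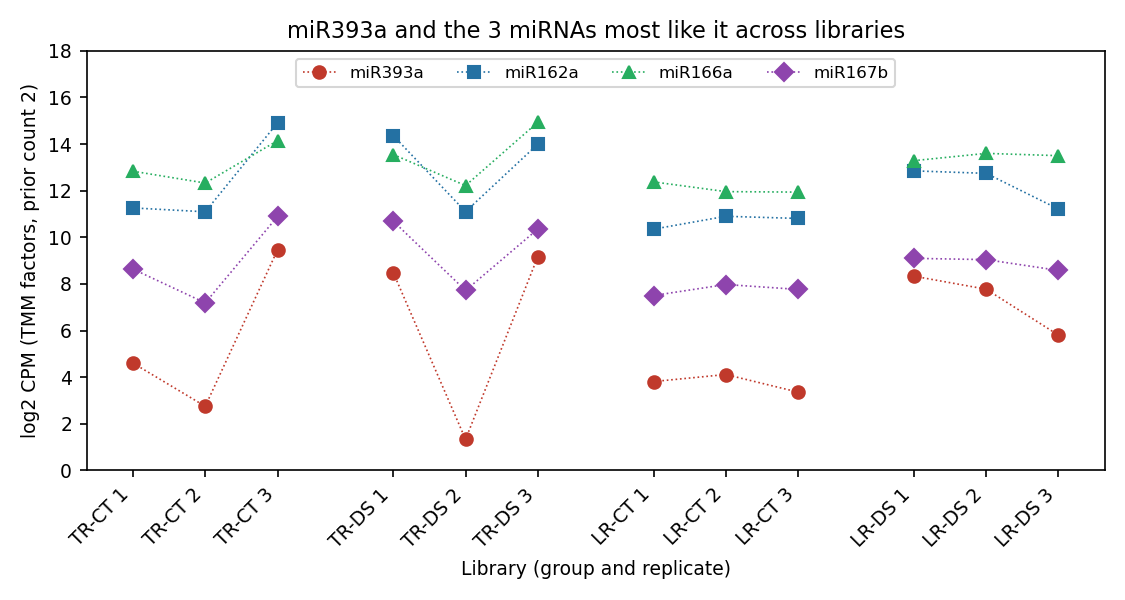
log2 CPM (TMM factors, prior count 2) of miR393a and of miR162a, miR166a and miR167b in each of the 12 libraries, with lines joining the replicates of a group. All 4 are higher in TR-CT replicate 3 than in the other TR-CT libraries and lower in TR-DS replicate 2 than in the other TR-DS libraries, and miR393a has the widest range.

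For miR393b, the most alike were a sequence-named miRNA, UCUGUCGUGGGAGAGAUGACGC, with a Spearman correlation of 0.887, miR390a with 0.669 and a sequence-named miRNA, UUUGGAAACGCACUUGAAUCG, with 0.620, beside a median of 0.15. With 73 counts of miR393b in 12 libraries and 3 libraries at 0, this order rests on few counts. Only 1 of the 3 names stayed with Pearson's correlation and 1 with library size in place of TMM.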

How the data were processed

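The 12 small RNA libraries were grouped by the root type and watering in their titles. The description of LR-DS replicate 3 names the count column of replicate 2, so its column was matched by title and library name. For TR-CT replicate 1 the column name differs slightly from its label, and it was matched because no other sample fits that name. The authors made TruSeq small RNA libraries (18 to 30 nt), used Cutadapt for trimming, discarded reads under 15 nt and ran ShortStack with miRBase sequences for mapping and quantification. The authors deposited raw counts per mature miRNA, without normalization. The submitters' processing notes name cutadapt, Bowtie, HISAT2 and FastQC without versions.

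The whole table was analysed in R 4.3.3 with edgeR 4.0.16. A miRNA was kept with 1 count or more in the libraries fitted, TMM factors computed, and groups compared by the quasi-likelihood F test with Benjamini-Hochberg adjustment over all miRNAs tested and a threshold of 0.05. Pairs of groups were fitted on their own 6 libraries, the interaction and the effect over both root types on all 12. The script was run on simulated counts for drought in taproots and drought in lateral roots only. Changes were set only in miRNAs with at least 100 counts, so rows as low as miR393b were not checked for changes. The SE is the absolute log2FC divided by the square root of F. Levels are log2 CPM (TMM over 12 libraries, prior count 2). Floors are 3 counts per library. miR393a and miR393b, the 12 auxin-related miRNAs (every miR160, miR164, miR167 and miR390) and the 3 most alike by Spearman correlation were named by rule, with earlier results of these data known. Replicates differed by more than sampling noise (chi-square per degree of freedom 25.2 to 3602). Alternatives were library size alone, RLE factors, DESeq2 1.42.0, library size without the most abundant miRNA, the likelihood ratio test, filterByExpr, a replicate block, 1 fit of 12 libraries, TMM within root types (interaction), a prior count of 0.5, pooled shares and leaving out each library. Plots and exact tests used Python 3.11.15. Transcripts, degradome and hormones were not analysed here.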

Additional observations from a re-analysis of the deposited data

How the results depend on the processing

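Of 139 values of miR393a, miR393b and their sum under other scalings, tests, filters and designs, 127 kept their direction and their side of the threshold, 9 changed sign, 2 lost a call and 1 gained one. The 127 include the DESeq2 values of miR393a and of the sum in LR-CT against TR-CT. These had no p and no adjusted p, so their side of the threshold was not tested, and they were counted as not called. The calls lost were those of drought in lateral roots in 1 fit of all 12 libraries, with log2FC values of 4.11 for miR393a and 3.55 for the sum (FDR 0.194 and 0.188, edgeR's quasi-likelihood test). The call gained was that of the sum for drought over both root types with DESeq2, 2.54 with an FDR of 0.0444. None of the 9 values that changed sign had passed the test. miR393b for drought in taproots was −0.49 with library size alone, −0.057 without the most abundant miRNA in the library size, −0.95 with the replicate block and −0.67 in 1 fit of 12 libraries. miR393b for drought over both root types was −0.030 with library size alone and −0.31 with the block. LR-DS against TR-DS was 0.16 for miR393a with the block, and for the sum 0.11 without the most abundant miRNA and 0.34 with the block. Pooling counts over a group gave differences in the share of miR393b of −2.76 percentage points for drought in taproots, 4.94 for LR-DS against TR-DS and 39.0 for LR-CT against TR-CT. Differences in mean log2 CPM moved to −1.74 for miR393b under drought in taproots with a prior count of 0.5, and with library size alone to 2.50 for miR393a and −0.37 for miR393b under drought in lateral roots and to 1.36 for miR393b in LR-CT against TR-CT. The cause of these changes was not tested.

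Leaving out 1 library gave the following ranges of log2FC. For drought in taproots they were −0.065 to 5.15 for miR393a, −4.40 to 0.66 for miR393b and −0.76 to 4.71 for the sum. For drought in lateral roots they were 3.90 to 4.77, 0.47 to 2.12 and 3.49 to 4.03 in the same order. For LR-CT against TR-CT they were −3.95 to −0.17, 0.43 to 1.33 and −3.20 to 0.11, and for LR-DS against TR-DS −1.30 to 0.51, 1.55 to 6.51 and −1.14 to 1.10. For drought over both root types they were 1.81 to 4.30, 0.055 to 0.89 and 1.61 to 3.77, and for the interaction −0.46 to 4.56, 0.48 to 6.48 and −0.52 to 3.97. The differences in mean log2 CPM ran, for miR393a, from −0.70 to 3.23 for drought in taproots, 3.03 to 4.29 in lateral roots, −3.27 to 0.084 for LR-CT against TR-CT and −1.53 to 2.39 for LR-DS against TR-DS. For miR393b they ran from −1.51 to −0.40, −0.38 to 1.76, 0.36 to 0.66 and 0.95 to 3.09 in the same order. Those in the share of miR393b ran from −26.2 to 23.8, −39.1 to −15.7, 3.43 to 31.8 and −32.1 to 17.9 percentage points.

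The number of miRNAs called in lateral roots under drought was 24 (7 higher, 17 lower), 35 with library size alone (2 higher, 33 lower), 23 without the most abundant miRNA (14 higher, 9 lower), 31 with DESeq2 (14 higher, 17 lower), 17 with the block, 0 in 1 fit of 12 libraries (16 at an unadjusted p of at most 0.05) and 14 to 32 without 1 library. In the other comparisons, where 0 were called, between 0 and 8 were called under the alternatives and between 0 and 10 without 1 library. The most called under an alternative were 8 over both root types, 3 in the interaction, 2 for drought in taproots, 2 for LR-CT against TR-CT and 1 for LR-DS against TR-DS. Same-numbered replicates deviated together with correlations of −0.29 to 0.68 for drought in taproots and of −0.30 to 0.08 in the other pairs of groups, so the numbers were not taken as pairs. Each library was checked in every pair of groups it belongs to. In 4 of 24 such checks (3, 0, 0 and 1 of 6) it was closest to its own number. The filterByExpr filter left miR393b out of drought in taproots and of LR-DS against TR-DS. DESeq2 gave no p and no adjusted p for miR393a and the sum in LR-CT against TR-CT. Depth limits what can be seen of miR393b, whose counts were between 0 and 17 per library.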
